A study of Homo sapiens with 9 samples.

Results

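mTOR is a protein kinase that works in a pair of complexes, and 10 genes of this system were followed through 9 RNA sequencing libraries. MTOR encodes the kinase and MLST8 a subunit of both complexes. RPTOR (raptor) and AKT1S1 (PRAS40) belong to mTOR complex 1 (mTORC1), RICTOR to mTOR complex 2 (mTORC2), and DEPTOR encodes an inhibitory partner of both. TSC1 and TSC2 encode the tuberous sclerosis complex upstream of mTORC1, RRAGD a Rag GTPase of the lysosomal amino acid branch, and RPS6KB1 the S6 kinase, a substrate of mTORC1. These 10 of the 27693 genes in the count table were chosen by name, with earlier results of these data known. All 10 passed the filter on low counts, as did 14683 genes in all.

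mTORC1 is known to promote protein, lipid and nucleotide synthesis and to restrain autophagy when growth factors and amino acids are present. The tuberous sclerosis complex switches off the small GTPase RHEB, which activates mTORC1, and Rag GTPases bring mTORC1 to the lysosome when amino acids are plentiful. Raptor and rictor bring substrates to their complexes, PRAS40 restrains mTORC1, and DEPTOR binds mTOR and lowers its kinase activity. In intestinal epithelium the pathway is known for its part in crypt cell growth and in the response to nutrients. Only RNA was measured, and kinase activity was not analysed here.

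The cells were Caco-2, a human colon adenocarcinoma line used as a model of intestinal epithelium, grown with lipid-depleted serum. The first group received 10 µM lovastatin with 10 µM SGA360, the second 10 µM lovastatin with 10 µM SGA315, and the third 10 µM lovastatin alone, each for 48 h and each with 3 libraries. Lovastatin inhibits HMG-CoA reductase and was present in every group, and the title of the series names both added compounds as selective AHR ligands (AHR, the aryl hydrocarbon receptor). Separate cultures for the libraries of a group are not stated in the labels. The p-values therefore rest on library-to-library spread, possibly a technical one. In bulk RNA, fewer cells of a type and less RNA per cell cannot be told apart.

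Depth was 12343137 to 16882576 counts per library with SGA360, 12894186 to 14747300 with SGA315 and 14141236 to 16316266 with lovastatin alone. No replicate pair agreed within sampling noise (chi-square over its degrees of freedom 1.36 to 2.39). Of 12 intestinal epithelial markers, 9 averaged over 1 CPM (the count scaled to library size with TMM factors), CDX1 was at 0, and KRT20 and LGALS4 averaged below 1 CPM. Their summed level was 5631 to 6043 CPM with SGA360, 4412 to 4487 CPM with SGA315 and 7830 to 7910 CPM with lovastatin alone. KRT8 and KRT18 carried much of it, at 2630 and 1192 CPM with SGA360 and 1492 and 716 CPM with SGA315. With lovastatin alone they had 3478 and 1630.5 CPM. CDX2 averaged 80.1, 117 and 75.9 CPM and FABP1 23.9, 56.9 and 29.9 CPM in the same order of groups. The sum of 5 leukocyte markers was 10.9 to 14.8, 9.76 to 11.97 and 18.5 to 19.1 CPM in the same order of groups. For 5 fibroblast and endothelial markers it was 200 to 212, 210.1 to 213 and 403 to 409 CPM, mostly from PDGFRA, and for 4 hepatocyte markers 77.0 to 105, 51.3 to 64.6 and 92.8 to 124 CPM, nearly all from ALB. Ribosomal RNA took 0.851 to 1.31% of counts with SGA360, 0.464 to 0.626% with SGA315 and 1.03 to 1.44% with lovastatin alone. The part of these differences in the results was not tested.

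The table lists transcripts, and each gene was read from its entry of largest summed count in the 9 libraries. These totals ranged from 1597 counts for DEPTOR and 2277 for RRAGD to 19278 for MTOR. The next entry of the same gene held 99.8 to 100% of that total for MLST8, RICTOR, TSC1, TSC2 and RPS6KB1, 94.8% for RPTOR, 94.4% for AKT1S1 and 83.8% for DEPTOR, and MTOR and RRAGD had 1 entry each.

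The 250 bases before the transcription start were read from RefSeq (GRCh38.p14), and windows of 6 of the 10 genes were used. RRAGD, AKT1S1 and MLST8 had no window in the source, so the gene of largest change was not examined. DEPTOR is not reported in this part. RPTOR is shown because it fell with both ligands, and MTOR, the kinase itself, because it differed little between groups. Capitals mark GCGTG on either strand, the core of the DNA element that AHR is known to bind.

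RPTOR, chr17:80544588-80544837, + strand: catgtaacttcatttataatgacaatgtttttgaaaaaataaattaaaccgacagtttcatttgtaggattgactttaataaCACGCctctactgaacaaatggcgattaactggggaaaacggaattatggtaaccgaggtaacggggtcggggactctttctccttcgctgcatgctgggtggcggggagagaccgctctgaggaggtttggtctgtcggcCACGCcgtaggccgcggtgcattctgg
MTOR, chr1:11262552-11262801, - strand: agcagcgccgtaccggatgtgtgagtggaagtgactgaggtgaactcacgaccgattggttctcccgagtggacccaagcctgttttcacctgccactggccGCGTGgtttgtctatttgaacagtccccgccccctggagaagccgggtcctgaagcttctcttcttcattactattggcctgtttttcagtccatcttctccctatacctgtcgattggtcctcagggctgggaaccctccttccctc

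The RPTOR window held GCGTG at 2 places and the MTOR window at 1 place. RICTOR also had 1 place, while the windows of TSC1, TSC2 and RPS6KB1 had 0. Of all 35116 such windows in the table, 32.2% held it. The E-box CACGTG, searched on both strands, was in 6.34% of windows and, among these genes, in 1 of the TSC2 windows. These matches describe letters only and not binding.

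Across the comparison of SGA360 with lovastatin alone, RRAGD, RPS6KB1 and MLST8 were higher and DEPTOR, AKT1S1 and RPTOR lower. These calls mean an adjusted p under 0.05 in edgeR's quasi-likelihood test, with Benjamini-Hochberg adjustment over all 14683 genes. That made 3 genes higher and 3 lower, where 62.7% of all genes tested were called, 31.4% higher and 31.4% lower. With SGA315 the same test called 7 higher (RRAGD, DEPTOR, TSC1, RICTOR, RPS6KB1, TSC2 and MTOR) and 2 lower (AKT1S1 and RPTOR), where 69.2% of all genes were called, 36% higher and 33.2% lower. Between the ligands, RRAGD was higher with SGA360, and DEPTOR, TSC1, RICTOR, AKT1S1 and MTOR were lower with SGA360 than with SGA315. That is 1 higher and 5 lower, where 42.7% of all genes were called, 21.8% higher and 20.9% lower. Libraries fell into separate CPM ranges for 7 genes between SGA360 and lovastatin alone, for 8 genes between SGA315 and lovastatin alone and for 7 genes between SGA360 and SGA315. The same held for 66.3%, 70.3% and 49.2% of all genes. The count with SGA360 lies near the share of all genes, and no count was tested as a group, so the size of each change is given gene by gene. The comparisons with lovastatin alone share its 3 libraries.

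Scaling the libraries to their totals alone, without TMM, moved the median log2 change over all genes to 0.14 for SGA360 and 0.16 for SGA315, against 0.02 and 0.04 with TMM. Changes are given relative to TMM scaling. The calls over all genes were then 6477 higher and 3136 lower for SGA360, against 4605 and 4604 with TMM, and 6932 and 3619 for SGA315, against 5287 and 4875.

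**Figure D1:**
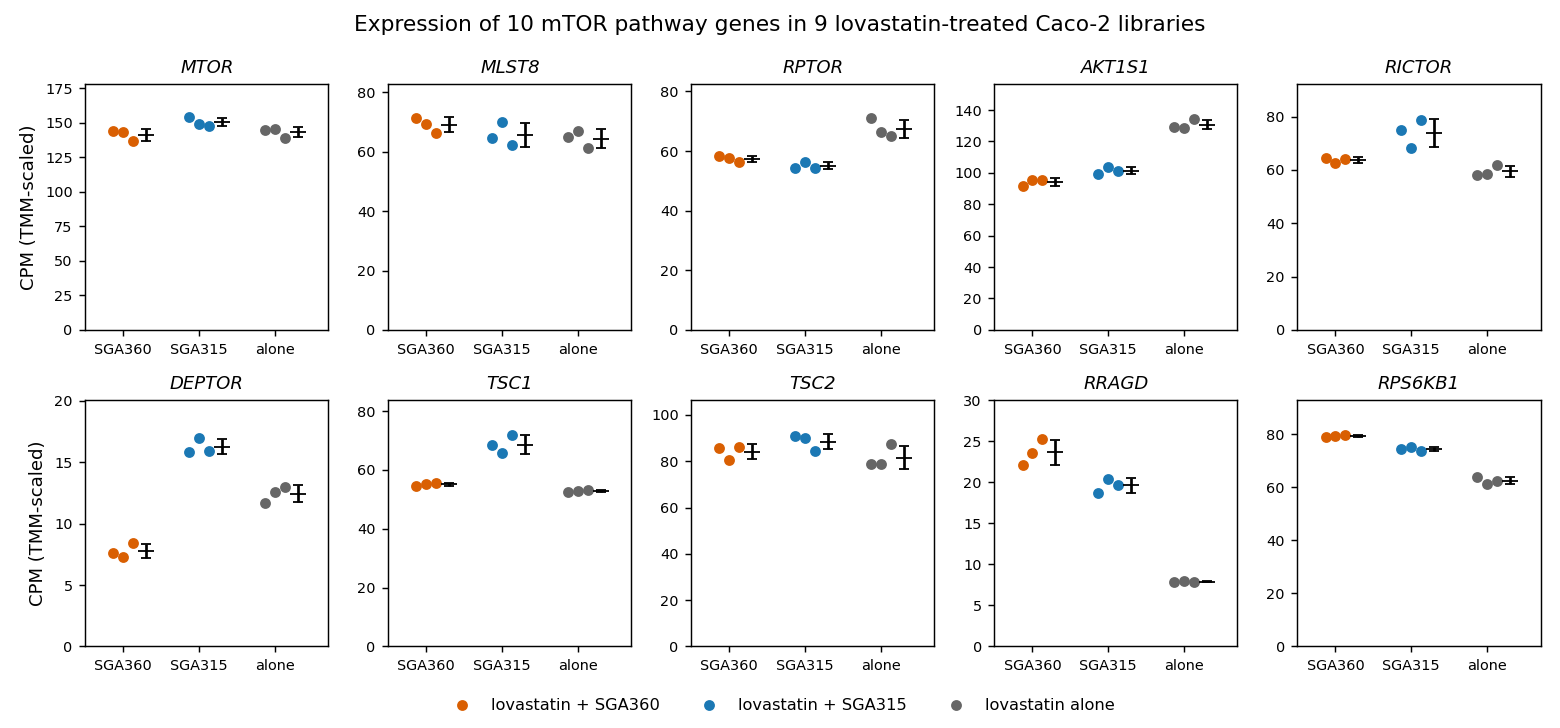
TMM-scaled CPM (vertical axes, from 0) of the 10 genes in each library, by group (horizontal axes). Points are libraries, and the black bars are the mean and SD of 3. RRAGD sits between 18.7 and 25.2 CPM with either ligand and below 8 CPM with lovastatin alone, while DEPTOR is lowest with SGA360 and highest with SGA315.

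RRAGD, which pairs with RRAGA or RRAGB in the Rag heterodimer, had the largest change among the 10 with either ligand. It had 22.2, 23.6 and 25.2 CPM with SGA360, 18.7, 20.5 and 19.7 CPM with SGA315, and 7.81, 7.96 and 7.91 CPM with lovastatin alone. The 3 groups did not overlap, with SGA360 highest and lovastatin alone lowest. These levels rest on 321 to 407, 261 to 292 and 106 to 122 counts per library. The mean was 23.7 ± 1.53 CPM with SGA360 and 7.89 ± 0.0764 CPM with lovastatin alone (SD, n = 3 each), a 2.98-fold rise (log2 fold change 1.58 ± 0.09, SE; edgeR quasi-likelihood, adjusted p = 7.18e-26). With SGA315 it was 19.6 ± 0.902 CPM, 2.48-fold higher than with lovastatin alone (1.31 ± 0.09; edgeR adjusted p = 6.12e-21). Only 1.01% of all tested genes had a larger change in size with SGA360, and 3.02% with SGA315. Set directly against SGA315, RRAGD with SGA360 was 1.2-fold higher (log2 difference 0.26, 95% interval 0.12 to 0.40; edgeR adjusted p = 0.00143).

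DEPTOR moved in opposite directions with the ligands. It had 7.65, 7.30 and 8.41 CPM with SGA360, 15.8, 17.0 and 15.96 CPM with SGA315, and 11.7, 12.6 and 13.03 CPM with lovastatin alone. All 3 groups were apart, with SGA360 below and SGA315 above the libraries given lovastatin alone. The counts behind these values were 107 to 127, 211 to 242 and 168 to 201 per library, the smallest total of the 10 genes. DEPTOR fell with SGA360 to 7.79 ± 0.568 CPM, against 12.45 ± 0.675 CPM with lovastatin alone (SD, n = 3 each), 1.61-fold lower (log2 fold change -0.69 ± 0.10, SE; edgeR adjusted p = 9.92e-09). It rose with SGA315 to 16.3 ± 0.613 CPM, 1.31-fold higher (0.38 ± 0.09; edgeR adjusted p = 6.43e-05). Between the ligands DEPTOR was 2.1-fold lower with SGA360 (log2 difference -1.07, 95% interval -1.26 to -0.88; edgeR adjusted p = 1.48e-15). Only 1.21% of all tested genes differed more between the ligands. Against lovastatin alone, 11% changed more with SGA360 and 40.6% with SGA315, so the rise with SGA315 was of common size.

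The shorter DEPTOR entry of the table showed the same order, with 104, 108 and 91 counts with SGA360, 203, 202 and 176 with SGA315 and 144, 139 and 171 with lovastatin alone. The full entry held 23, 18 and 16 further counts with SGA360, 38, 40 and 35 with SGA315 and 30, 29 and 30 with lovastatin alone. In GENCODE 29 an RNA on the opposite strand, AP005717.1, covers 9.81% of the DEPTOR exon bases, and without strand information its reads cannot be told apart from those of DEPTOR.

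Of the subunits of mTORC1, RPTOR and AKT1S1 fell with both ligands, while MTOR and MLST8 changed by at most 1.08-fold in either comparison with lovastatin alone. AKT1S1 had 91.4, 95.3 and 95.6 CPM with SGA360, 99.5, 104 and 101 CPM with SGA315, and 129, 129 and 134 CPM with lovastatin alone. Every ligand library lay below every library of lovastatin alone, and SGA360 below SGA315. AKT1S1 was 1.39-fold lower with SGA360 (log2 fold change -0.48 ± 0.04, SE; edgeR adjusted p = 3.66e-19) and 1.29-fold lower with SGA315 (-0.37 ± 0.04; edgeR adjusted p = 1.53e-14). The log2 difference of SGA360 against SGA315 was -0.11 (95% interval -0.18 to -0.04; edgeR adjusted p = 0.013). It lost its call without SGA360 replicate 1 (adjusted p = 0.0985), without SGA315 replicate 2 (0.064), with DESeq2 (0.0727) and with another entry of each gene (0.0857 for the lowest accession and 0.0889 for the second highest total), over a range of 0.0085 to 0.0985. AKT1S1 shares 6.96% of its exon bases with TBC1D17 on the opposite strand, a gene with 7809 counts in all against 14415 for AKT1S1.

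RPTOR had 58.2, 57.5 and 56.4 CPM with SGA360, 54.4, 56.4 and 54.5 CPM with SGA315, and 71.0, 66.3 and 65.2 CPM with lovastatin alone. Both ligand groups lay below lovastatin alone and overlapped with each other. RPTOR fell 1.18-fold with SGA360 (log2 fold change -0.23 ± 0.04, SE; edgeR adjusted p = 3.9e-06) and 1.23-fold with SGA315 (-0.29 ± 0.04; edgeR adjusted p = 3.18e-08). These sizes shrank to -0.12 and -0.17 under totals-only scaling, where both stayed called. The log2 difference of SGA360 against SGA315 was not called (0.06, 95% interval -0.03 to 0.15; edgeR adjusted p = 0.298). The change of RPTOR was of common size, since 52.7% of tested genes changed more with SGA360 and 52.3% with SGA315.

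The kinase gene MTOR ranged from 137 to 144 CPM with SGA360, from 148 to 154 CPM with SGA315 and from 139 to 146 CPM with lovastatin alone. The libraries with SGA315 lay above both other groups, which overlapped. Its log2 fold change with SGA360 was -0.02 (95% interval -0.08 to 0.05; edgeR adjusted p = 0.706), which became 0.10 under totals-only scaling (adjusted p = 0.00682). With SGA315 it was 0.08 (0.01 to 0.14; edgeR adjusted p = 0.04), and 0.20 under totals-only scaling. That call was lost in 11 of 17 alternatives, among them DESeq2 (adjusted p = 0.217), RLE scaling (0.132) and 6 that left out a library. Those 6 were SGA360 replicate 1 (0.115), 2 (0.11) or 3 (0.0977), SGA315 replicate 1 (0.322) and lovastatin replicate 1 (0.111) or 3 (0.361). Between the ligands MTOR was lower with SGA360 by a log2 difference of -0.09 (95% interval -0.16 to -0.02; edgeR adjusted p = 0.0219), a call that ended without SGA360 replicate 3 (0.126), without SGA315 replicate 1 (0.128) and with DESeq2 (0.1).

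MLST8, the small subunit that stabilises the kinase domain, ranged from 66.4 to 71.4 CPM with SGA360, from 62.3 to 70.0 CPM with SGA315 and from 61.1 to 67.2 CPM with lovastatin alone. The 3 groups overlapped. Its log2 fold change of 0.11 with SGA360 (95% interval 0.02 to 0.20; edgeR adjusted p = 0.0327) lost its call in 9 of 17 alternatives and was 0.22 under totals-only scaling. Those that ended it included DESeq2 (adjusted p = 0.154) and leaving out SGA360 replicate 1 (0.262) or 2 (0.125), SGA315 replicate 1 (0.0708), or lovastatin replicate 1 (0.0966) or 3 (0.365). With SGA315 it was 0.03 (-0.06 to 0.12; edgeR adjusted p = 0.576), which turned to -0.02 without SGA315 replicate 2 or lovastatin replicate 3 and was called at 0.15 under totals-only scaling (adjusted p = 0.00273). MLST8 shares 7.32% of its exon bases with BRICD5 on the opposite strand. Against SGA315 it was 0.08 with SGA360 (-0.01 to 0.17; adjusted p = 0.16), called without SGA315 replicate 2 (0.13, adjusted p = 0.0293).

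RICTOR, the defining subunit of mTORC2, rose with SGA315. It had 64.5, 62.5 and 63.9 CPM with SGA360, 74.8, 68.1 and 78.7 CPM with SGA315, and 58.1, 58.5 and 61.9 CPM with lovastatin alone. The groups did not overlap, and the libraries with SGA315 were the highest and the most spread. RICTOR was 1.24-fold higher with SGA315 (log2 fold change 0.31 ± 0.05, SE; edgeR adjusted p = 1.21e-08). With SGA360 the log2 fold change was 0.09 (95% interval 0.003 to 0.19; edgeR adjusted p = 0.0673), which was called without SGA315 replicate 3 (adjusted p = 0.0494), in a fit of these 2 groups alone (0.0371) and under totals-only scaling (0.21, adjusted p = 6.3e-05). RICTOR was lower with SGA360 than with SGA315 by a log2 difference of -0.21 (95% interval -0.30 to -0.13; edgeR adjusted p = 4.74e-05).

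**Figure D2:**
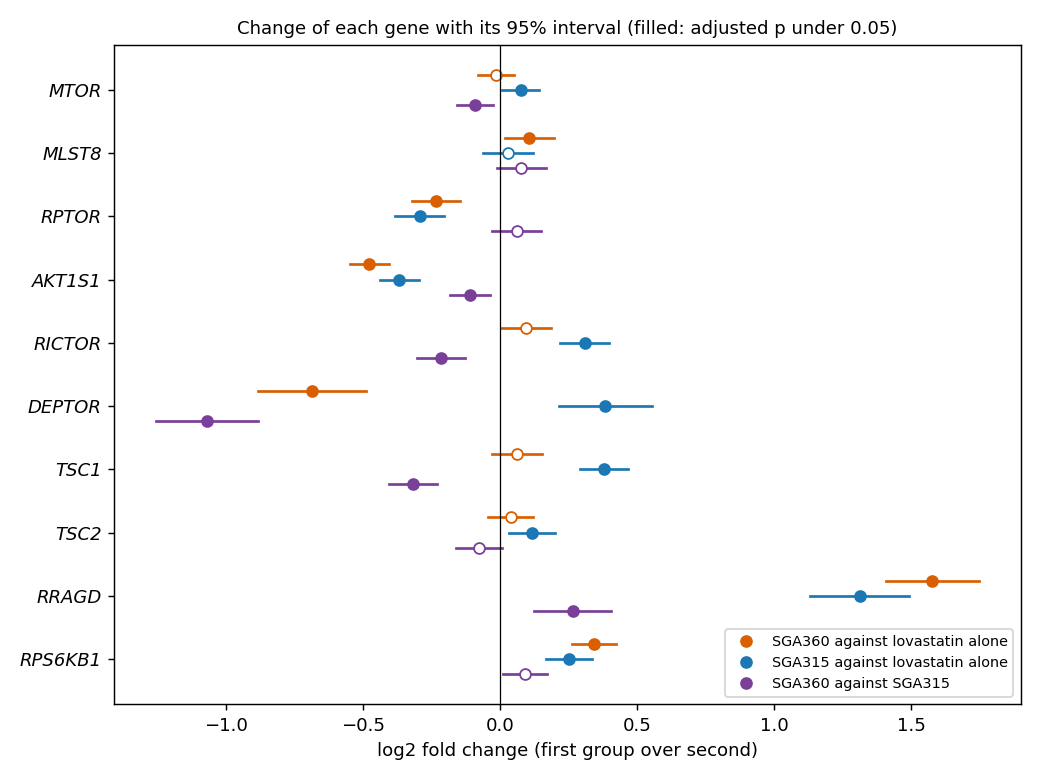
Log2 fold changes (horizontal axis) of the 10 genes (rows), with 95% intervals from the edgeR fit, for SGA360 against lovastatin alone, SGA315 against lovastatin alone and SGA360 against SGA315. Filled points have an adjusted p under 0.05. RRAGD stands at 1.58 and 1.31 with the ligands, and DEPTOR at -0.69 with SGA360 and 0.38 with SGA315.

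Upstream of mTORC1, TSC1 rose with SGA315. TSC1, the stabilising partner of TSC2, had 54.5, 55.1 and 55.6 CPM with SGA360, 68.4, 65.6 and 71.8 CPM with SGA315, and 52.4, 52.8 and 53.0 CPM with lovastatin alone. The libraries with SGA315 were well above the others, and those with SGA360 lay just above lovastatin alone. TSC1 was 1.3-fold higher with SGA315 (log2 fold change 0.38 ± 0.04, SE; edgeR adjusted p = 1.74e-11). With SGA360 it had a log2 fold change of 0.06 (95% interval -0.03 to 0.15; edgeR adjusted p = 0.232), which was called at 0.18 under totals-only scaling (adjusted p = 0.000587). The difference between SGA360 and SGA315 was -0.32 (95% interval -0.40 to -0.23; edgeR adjusted p = 8.97e-09).

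TSC2, which carries the GTPase-activating domain that acts on RHEB, ranged from 80.3 to 86.1 CPM with SGA360, from 84.6 to 90.7 CPM with SGA315 and from 78.6 to 87.5 CPM with lovastatin alone, so all groups overlapped. Its log2 fold change was 0.12 with SGA315 (95% interval 0.03 to 0.20; edgeR adjusted p = 0.0124) and 0.24 under totals-only scaling. This call ended without SGA315 replicate 1 (adjusted p = 0.125), without lovastatin replicate 1 (0.18) or 2 (0.093) and with DESeq2 (0.105). It was 0.04 with SGA360 (-0.04 to 0.12; edgeR adjusted p = 0.435), which was -0.0048 without lovastatin replicate 1 and was called at 0.15 under totals-only scaling (adjusted p = 0.00116). Between SGA360 and SGA315 it was -0.08 (-0.16 to 0.01; adjusted p = 0.127), called without SGA315 replicate 3 (adjusted p = 0.0397). TSC2 shares 10.97% of its exon bases with PKD1 and 2.23% with NTHL1, both on the opposite strand, so its counts may hold reads of these genes.

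Downstream, RPS6KB1 rose with both ligands. It had 78.8, 79.4 and 79.7 CPM with SGA360, 74.5, 75.2 and 73.5 CPM with SGA315, and 63.8, 61.2 and 62.5 CPM with lovastatin alone. The groups did not overlap, and replicates lay close together. RPS6KB1 was 1.27-fold higher with SGA360 (log2 fold change 0.34 ± 0.04, SE; edgeR adjusted p = 3.22e-11) and 1.19-fold higher with SGA315 (0.25 ± 0.04; edgeR adjusted p = 2.46e-07). Between SGA360 and SGA315 the log2 difference was 0.09 (95% interval 0.01 to 0.17; edgeR adjusted p = 0.0556) and was called with RLE scaling (adjusted p = 0.0338).

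Among 92 other tested genes of the pathway, 37 (40.2%) were higher and 28 (30.4%) lower with SGA360, where 31.4% and 31.4% of all genes tested were. Their median log2 fold change was 0.06, against 0.02 over all genes. With SGA315, 44 (47.8%) were higher and 25 (27.2%) lower, where 36% and 33.2% of all genes were, at a median of 0.10, against 0.04 over all genes. Under totals-only scaling 54 (58.7%) were higher and 18 (19.6%) lower with SGA360, where 44.1% and 21.4% of all genes were, and 54 (58.7%) higher and 16 (17.4%) lower with SGA315, where 47.2% and 24.6% of all genes were. The counts of single lists, which hold few genes each, stand against these same shares of all genes and are given as descriptions. DDIT4L was the only gene of the lists that did not pass the filter on low counts.

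The assembly and mTORC2 factors fell or were not called. Of 6 such genes beside the complex members above, 0 were higher and 4 lower with SGA360, and 0 higher and 3 lower with SGA315. Shares over all genes were 31.4% higher and 31.4% lower with SGA360, and 36% and 33.2% with SGA315. TELO2 and TTI1, of the complex that helps mTOR-like kinases fold, fell with SGA360 by 0.43 ± 0.06 and 0.28 ± 0.04 on the log2 scale (SE), and with SGA315 by 0.63 ± 0.06 and 0.34 ± 0.04. The rictor partner PRR5 fell by 0.14 with SGA360, a call lost under totals-only scaling, and by 0.23 with SGA315. It shares 30.0% of its exon bases with the readthrough gene PRR5-ARHGAP8. The mTORC2 subunit gene MAPKAP1 had log2 fold changes of 0.02 and -0.08 with SGA360 and SGA315, neither called, though the first was called at 0.13 under totals-only scaling and the second at -0.10 with RLE scaling. PRR5L, a relative of PRR5, had only 3, 8 and 3 counts with SGA360, 22, 25 and 11 with SGA315 and 8, 18 and 17 with lovastatin alone. It fell with SGA360 by 1.69 ± 0.43 and had 0.46 ± 0.31 with SGA315 (not called), and was lower with SGA360 than with SGA315 by a log2 difference of -2.14 ± 0.40 (SE; edgeR adjusted p = 9.21e-06).

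The relatives of RRAGD did not all move with it. RRAGC, the close paralogue of RRAGD, had 38.8, 42.6 and 42.8 CPM with SGA360, 40.8, 46.2 and 45.6 CPM with SGA315, and 28.8, 32.9 and 32.2 CPM with lovastatin alone, log2 fold changes of 0.40 ± 0.06 and 0.50 ± 0.06 (SE; edgeR adjusted p = 1.24e-08 and 1.85e-11). RRAGB rose by 0.55 ± 0.10 and 0.67 ± 0.10, while RRAGA had -0.14 and -0.004 (adjusted p = 0.0586 and 0.961). With RLE scaling RRAGA was called at -0.15 with SGA360 (adjusted p = 0.0418), and under totals-only scaling it was at -0.03 with SGA360 and 0.12 with SGA315, neither called. An RNA on the same strand, AL139260.2, covers 43.3% of the RRAGC exon bases. SLC38A9, the lysosomal arginine sensor that binds the Rag GTPases, rose by 0.29 ± 0.04 with SGA360 and had 0.09 ± 0.04 with SGA315 (adjusted p = 0.0574, called at 0.21 under totals-only scaling), and the difference between SGA360 and SGA315 was itself called (0.21 ± 0.04; adjusted p = 1.62e-05). Of the 9 genes of the Rag and Ragulator list other than RRAGD, 3 were higher and 1 lower with SGA360, and 3 higher and 2 lower with SGA315, at medians of 0.06 and -0.004. Over all genes, 31.4% were higher and 31.4% lower with SGA360, and 36% and 33.2% with SGA315. With RRAGD included, 4 of 10 genes were higher with each ligand. Under totals-only scaling these were 8 with SGA360 and 6 with SGA315, where 44.1% and 47.2% of all genes were higher.

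The MiT/TFE transcription factors are known to bind the RRAGD promoter and to raise its transcription. Their part in the RRAGD change was not tested, and their activity was not measured. MITF had 9.38 CPM on average with SGA360, 6.47 CPM with SGA315 and 4.48 CPM with lovastatin alone, log2 fold changes of 1.07 ± 0.12 and 0.53 ± 0.14 (SE; edgeR adjusted p = 1.2e-11 and 0.000431). TFEB averaged 4.01, 2.51 and 2.89 CPM in the same order. It rose by 0.49 ± 0.17 with SGA360 (edgeR adjusted p = 0.00963), a call lost with DESeq2, and had -0.20 ± 0.19 with SGA315 (adjusted p = 0.346). TFE3 had 72.4, 68.1 and 72.8 CPM and was not called with either ligand, though it was called at 0.11 with SGA360 under totals-only scaling and at -0.12 with SGA315 with RLE scaling. Of the 4 genes of this list, 2 were higher and 0 lower with SGA360, and 1 higher and 0 lower with SGA315. Over all genes, 31.4% were higher and 31.4% lower with SGA360, and 36% and 33.2% with SGA315.

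In the TSC and RHEB list, TBC1D7, the third subunit of the tuberous sclerosis complex, fell by 0.82 ± 0.06 on the log2 scale with SGA315 (SE; edgeR adjusted p = 6.06e-19). With SGA360 it fell by 0.17 ± 0.06, a call lost under totals-only scaling, and the difference between SGA360 and SGA315 was 0.65 ± 0.06 (adjusted p = 8.6e-14). RHEB averaged 139 CPM with SGA360, 127.5 CPM with SGA315 and 134 CPM with lovastatin alone and was not called with either ligand. It was called at 0.17 with SGA360 under totals-only scaling and at -0.09 with SGA315 with RLE scaling. Its relative RHEBL1 fell by 0.55 ± 0.19 with SGA315.

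Of 15 genes of the GATOR, KICSTOR and folliculin complexes, which report amino acid supply to the Rag GTPases, 8 (53.3%) were higher and 5 (33.3%) lower with each ligand, where 31.4% and 31.4% of all genes were with SGA360 and 36% and 33.2% with SGA315. The medians were 0.09 with SGA360 and 0.26 with SGA315. With DESeq2, 5 were higher and 5 lower with SGA360, where 25.2% and 28.7% of all genes were. SGA315 then had 7 higher and 5 lower, where 29.3% and 31.5% of all genes were. NPRL2, a GATOR1 subunit whose exons overlap CYB561D2 by 23.4%, rose by 0.32 ± 0.07 with SGA360 and 0.74 ± 0.06 with SGA315 on the log2 scale, and SEH1L, which also serves the nuclear pore, fell by 0.35 ± 0.03 and 0.63 ± 0.03. Among 14 nutrient and energy sensors, 9 (64.3%) were higher and 3 (21.4%) lower with SGA360, against 31.4% and 31.4% of all genes, and 8 (57.1%) higher and 2 (14.3%) lower with SGA315, against 36% and 33.2%. DDIT4 (REDD1), a stress-induced inhibitor of mTORC1, averaged 152 CPM with SGA360, 183 CPM with SGA315 and 106 CPM with lovastatin alone, with 48.5% of its exon bases shared with DDIT4-AS1 on the opposite strand. The sestrin gene SESN3 averaged 101 CPM, 88.4 CPM and 58.4 CPM, and PRKAB2, which encodes a beta subunit of the energy sensor AMPK, 157 CPM, 171 CPM and 99.8 CPM.

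Of 13 insulin, PI3K and AKT inputs, 4 (30.8%) were higher and 5 (38.5%) lower with SGA360, against 31.4% and 31.4% of all genes, and 9 (69.2%) higher and 4 (30.8%) lower with SGA315, against 36% and 33.2%. With DESeq2, 6 (46.2%) were higher and 4 (30.8%) lower with SGA315, against 29.3% and 31.5% of all genes. AKT1, which phosphorylates TSC2 and PRAS40, fell by 0.40 ± 0.03 with SGA360 and 0.64 ± 0.03 with SGA315 on the log2 scale. The insulin receptor substrate gene IRS2 rose by 0.39 ± 0.05 and 0.70 ± 0.05. PDPK1, which activates AKT, had 0.03 ± 0.03 with SGA360 (not called, but called at 0.14 under totals-only scaling) and rose by 0.32 ± 0.03 with SGA315. The difference of PDPK1 between SGA360 and SGA315 was -0.30 ± 0.03 (SE; edgeR adjusted p = 7.22e-13), and its counts are uncertain because a near-identical pseudogene exists.

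Among 14 substrates and effectors of mTORC1 beside RPS6KB1, 3 were higher and 6 lower with SGA360, and 8 higher and 4 lower with SGA315. The shares of all genes were 31.4% higher and 31.4% lower with SGA360, and 36% and 33.2% with SGA315. PDCD4, a translation repressor that S6 kinase marks for degradation, averaged 63.9 CPM with SGA360, 102 CPM with SGA315 and 54.0 CPM with lovastatin alone, with 34.5% of its exon bases shared with BBIP1 on the opposite strand. The autophagy kinase gene ULK1 averaged 92.0, 117 and 76.1 CPM, and the cap-binding protein gene EIF4E 63.8, 54.9 and 92.8 CPM, in the same order. EIF4EBP1, which encodes an inhibitor of EIF4E, had a log2 fold change of 0.05 ± 0.04 with SGA360 (called only under totals-only scaling, at 0.16) and fell by 0.16 ± 0.04 with SGA315, a call lost under totals-only scaling. RPS6KB2, the paralogue of RPS6KB1, was not called with either ligand (0.08 ± 0.04 and -0.05 ± 0.04), except at 0.20 with SGA360 under totals-only scaling. Among 8 substrates of mTORC2 and AKT, 4 were higher and 1 lower with SGA360, and 3 higher and 2 lower with SGA315. These counts stand beside the same shares of all genes. Log2 fold changes in this list ran from -1.04 to 1.19 with SGA360 and from -0.78 to 0.63 with SGA315. SGK1, a kinase that mTORC2 activates, fell to 17.4 CPM with SGA360 and 20.8 CPM with SGA315, against 35.7 CPM with lovastatin alone. NDRG1, a substrate of SGK1, rose by 0.15 ± 0.05 and 0.54 ± 0.04 on the log2 scale, and FOXO3, a transcription factor that AKT restrains, by 0.15 ± 0.04 and 0.39 ± 0.04.

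Of 6 genes linked to turnover of the DEPTOR protein, 4 were higher and 2 lower with SGA360, and 4 higher and 1 lower with SGA315. All genes together gave 31.4% higher and 31.4% lower with SGA360, and 36% and 33.2% with SGA315. BTRC, a subunit of the ubiquitin ligase that marks DEPTOR, rose by 0.21 ± 0.05 with SGA360 and 0.45 ± 0.05 with SGA315 on the log2 scale. OTUB1, a deubiquitinase reported to stabilise DEPTOR, fell by 0.56 ± 0.04 and 0.76 ± 0.04. USP3, a deubiquitinase on the same list, rose by 0.13 ± 0.04 and 0.35 ± 0.04.

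**Figure D3:**
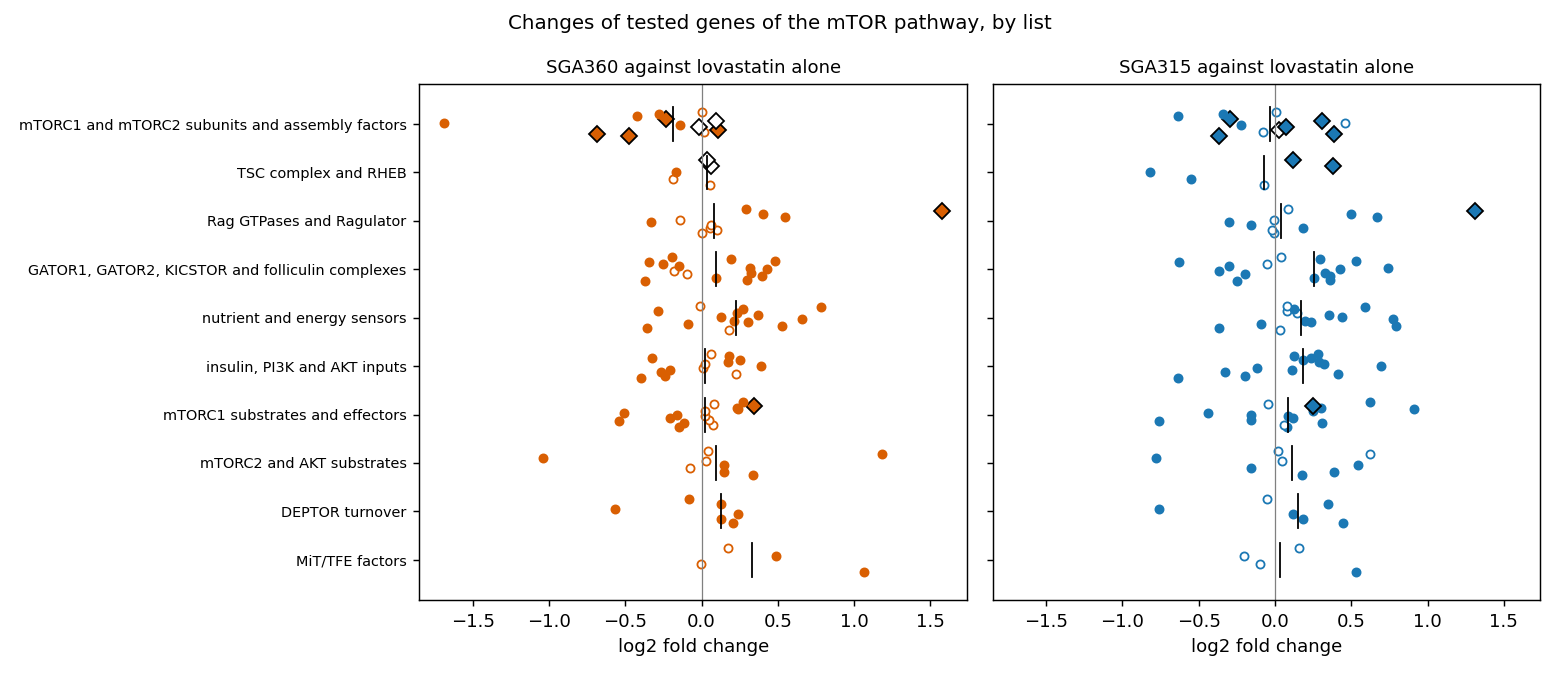
Log2 fold changes (horizontal axes) of the tested genes of 10 pathway lists (rows), with SGA360 (left) and SGA315 (right) against lovastatin alone. Diamonds are the 10 genes followed here, circles the others, filled symbols have an adjusted p under 0.05, and black bars are list medians. RRAGD lies at the far right in both panels, at 1.58 and 1.31.

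By the root mean square difference of centred log2 CPM over the 9 libraries, searched among 13821 genes, the genes most like RRAGD were TRANK1 (0.09), the mitochondrial aspartate-glutamate carrier gene SLC25A12 (0.10), GPCPD1 (0.11), the transporter gene SLC16A9 (0.11) and the MYC family gene MYCL (0.11). The level of GPCPD1 was 107 CPM with SGA360, 88.3 CPM with SGA315 and 31.2 CPM with lovastatin alone. Those most like DEPTOR were GDPD5 (0.08), the aldo-keto reductase gene AKR1C2 (0.08), the pro-apoptotic gene BMF (0.11), the actin-bundling gene ESPN (0.13) and SMAD9 (0.13). GDPD5 had 19.3 CPM with SGA360, 38.3 CPM with SGA315 and 29.7 CPM with lovastatin alone. AKR1C2 has near-identical paralogues, so its counts are uncertain. These likenesses are descriptions over libraries that share their groups.

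**Figure D4:**
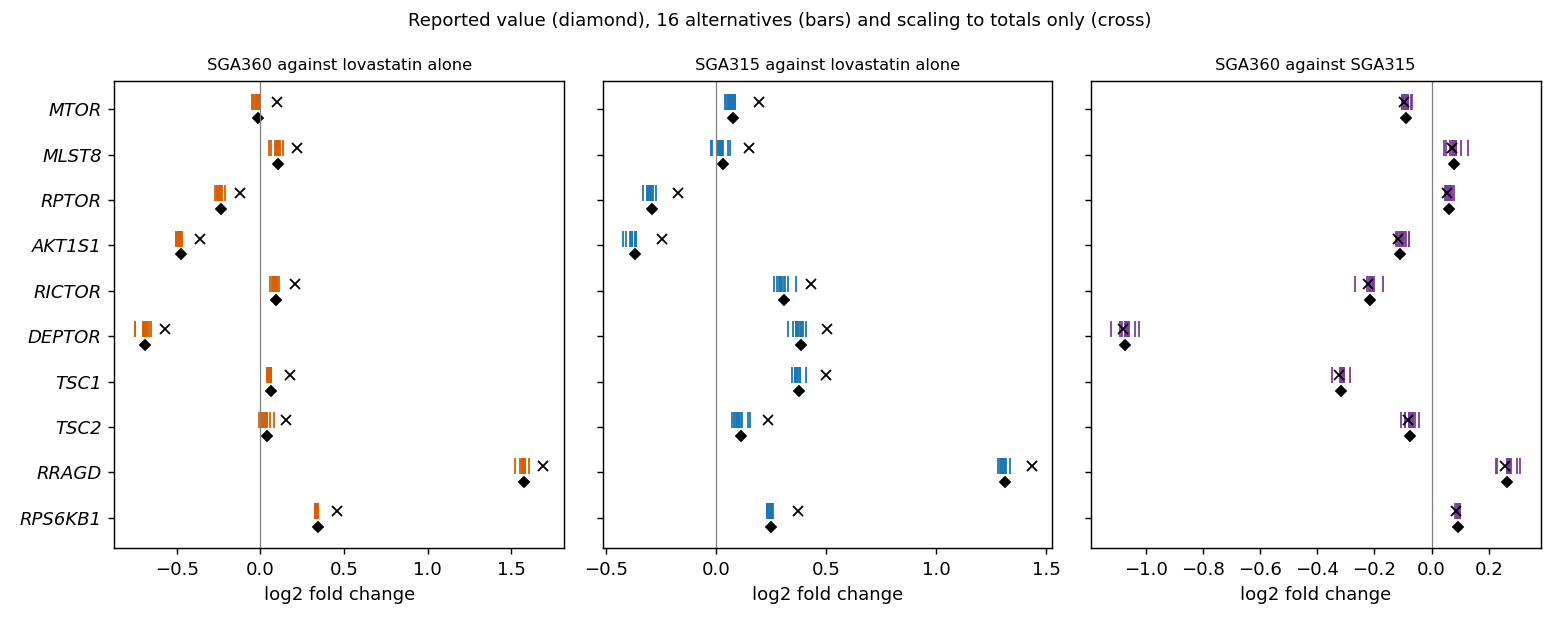
Log2 fold changes (horizontal axes) of the 10 genes (rows) in each comparison (panels), as reported (diamonds), in 16 alternatives (bars) and under totals-only scaling (crosses). The crosses of both comparisons with lovastatin alone lie to the right of the diamonds, while RRAGD stays between 1.52 and 1.69 with SGA360 and DEPTOR between -0.75 and -0.57.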

How the data were processed

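For each library the deposited table holds an unnormalized count per RefSeq transcript accession. The submitters' processing notes name hg19, HTSeq 0.5.4p3 and TopHat2 2.0.13, without their roles. No source used here gives the annotation release or the strand setting. Of 65325 transcript entries, 64340 were named from RefSeq (GRCh38.p14) and 571 from GENCODE 29. The other 414 (0.224% of counts) stayed out. Of genes with identical counts and a total of at least 100, 1 per set was kept (43 dropped).

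The test was that of edgeR 4.0.16 under R 4.3.3 (quasi-likelihood F test, TMM, filterByExpr with minimum count 10 and minimum total 15, all 9 libraries in 1 fit, no covariate). SE values are the log2 fold change over the root of F. The script was checked on simulated counts. A count of 0 allows up to 3 counts, or 0.174 to 0.236 CPM, for counting error only. The biological coefficient of variation was 2.16%.

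Alternatives were RLE scaling, totals only, DESeq2 1.42.0, no filter, 2 groups only, a replicate block, other entries per gene and leaving out each library. The members and lists were chosen with earlier results of these data known. All 10 members are named. Per list, the 3 other genes of smallest p and 10 partners fixed by name are given, except 1 gene that is not reported here. For RRAGD and DEPTOR, the 5 nearest genes of at least 1 CPM are named (prior count 2).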

Additional observations from a re-analysis of the deposited data

How the results depend on the processing

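Over 17 alternatives, RRAGD, DEPTOR, AKT1S1, RPTOR and RPS6KB1 kept direction and call with both ligands, as did RICTOR and TSC1 with SGA315, and DEPTOR, RRAGD, RICTOR and TSC1 between the ligands. RRAGD has 1 entry, so the alternatives with other entries per gene reused the same RRAGD counts. The second entry of RICTOR, TSC1 and RPS6KB1 held 99.9 to 100% of the total used, so that alternative could hardly differ for them. Leaving out a library outside a comparison changed that comparison only through the scaling, the filter and the shared spread. RRAGD ranged from 1.52 to 1.69 on the log2 scale with SGA360 and from 1.28 to 1.43 with SGA315, and DEPTOR from -0.75 to -0.57 and from 0.32 to 0.51. The higher members with SGA360 were 7 with scaling to totals only, where 44.1% of all genes were higher, against 3, where 31.4% were. They were 2 with RLE scaling and 2 with DESeq2, where 30.4% and 25.2% of all genes were higher. With SGA315 the higher members were 6 with RLE scaling, 5 with DESeq2 and 8 with scaling to totals only, in place of 7. Shares of all genes were then 34.2%, 29.3% and 47.2%, in place of 36%. Between the ligands the higher members were 2 in place of 1 with RLE scaling and between 1 and 2 when a library was left out (2 without SGA315 replicate 2, where MLST8 was called), and the lower members were 3 in place of 5 with DESeq2.

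Values that turned were MTOR with SGA360 (0.10 with scaling to totals only), TSC2 with SGA360 (-0.0048 without lovastatin replicate 1, in a range up to 0.079 when 1 library was left out) and MLST8 with SGA315 (-0.020 without SGA315 replicate 2 and -0.023 without lovastatin replicate 3, in a range up to 0.064). The cause was not tested, except that totals-only scaling moves the median of all genes upward.

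Deviations of same-numbered libraries correlated by -0.024 to 0.046 over 9 pairs, against -0.057 to 0.032 over 18 pairs of unlike number. The labels do not say whether a number marks a shared culture or day, and these correlations cannot decide it. With a replicate block the higher members between the ligands were 2 in place of 1, since RPS6KB1 was called (adjusted p = 0.0485), and RICTOR was called with SGA360 (adjusted p = 0.0341).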
